A study of Mus musculus with 40 samples.

Results

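Kidney was set against lung and heart of the same age to describe which transcripts set it apart. The comparison used 15 of the 40 arrays of the series: 5 of kidney, 5 of lung and 5 of heart, all from male C57BL/6 mice of 4 weeks. A gene was counted when kidney differed the same way from lung and from heart. The labels describe the organs as slowly proliferating at this age. Kidney and lung of 8 weeks, and kidney, lung and heart of 1 week, with 5 arrays in each group and the same strain and sex, were used to ask whether the same genes were set apart at the other ages. The series' text gives 5 animals per group for kidney and lung. For heart nothing says that the samples came from separate animals, so its p-values measure only the spread between these samples. Whether organs of the same age share animals is not stated, and the tests treated all arrays as independent. None of the animals carried a named allele or treatment. Whole organs were extracted, so a lower signal can come from fewer cells of a type or from less RNA per cell, and these cannot be told apart.

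The kidney filters blood in the glomerulus, whose podocytes form the filter, and then recovers most of the filtrate along the tubule. The proximal tubule takes back phosphate, glucose, amino acids and filtered proteins through a brush border, secretes drugs and organic ions, and makes glucose. The loop of Henle, the distal tubule and the collecting duct then set the final content of salt, calcium, acid and water. Each segment carries its own transporters, and several are commonly used as markers of that segment.

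The deposited values are linear intensities, called signals here. A gene with several probe sets is given by the one whose mean over all 40 arrays was highest, and 14463 genes were tested, namely those whose mean signal in at least 1 of the 3 organs reached 117.9. Differences are log2(signal + 16) in kidney minus the same in the other organ, so that 2 is 4-fold. For genes dim in an organ the offset of 16 makes the fold smaller than the ratio of the signals. Precision is set by the 5 arrays per group. Signals of different probe sets are not compared with each other.

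All 15 arrays carried the markers of the organ on their label. Umod ranged from 24451 to 31815 on the kidney arrays, against 4.10 to 56.0 on the lung arrays and 2.90 to 59.5 on the heart arrays. Sftpc, the surfactant protein C gene of lung, ranged from 111 to 263 on the kidney arrays, against 20101 to 35377 on the lung arrays. Tnnt2, a heart troponin, ranged from 1.10 to 25.0 on the kidney arrays, against 50111 to 61224 on the heart arrays. Heart replicate 3 also gave 1013 for Sftpc and 1657 for Scgb1a1, an airway gene. The log2 signal of the 3′ actin probe set minus that of the 5′ probe set, a sign of RNA integrity, was 0.61 to 1.43 for kidney, 0.36 to 0.54 for lung and 0.44 to 0.67 for heart. It was thus higher in kidney than in lung on every array, and its part in the differences was not tested. Mean log2 signals of the poly-A controls were 10.43 to 11.67 (kidney), 9.86 to 11.04 (lung) and 11.17 to 12.46 (heart). Those of the hybridisation controls were 11.33 to 12.27 (kidney), 11.38 to 11.93 (lung) and 12.12 to 12.77 (heart). For both kinds of control every heart array lay above every lung array, and the part of this in the differences was not tested.

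Kidney differed from lung in 9271 genes, 64.1% of those tested, and from heart in 8798, or 60.8% (limma, Benjamini-Hochberg adjusted p under 0.05). It was higher than lung in 28% and lower in 36.1%, and higher than heart in 30.8% and lower in 30%. It was higher than both organs in 2342 genes (16.2% of those tested) and lower than both in 2499 (17.3%). At 4-fold or more in both comparisons the counts were 595 higher (4.11%) and 207 lower (1.43%). At 32-fold or more there were 134 higher and 4 lower. Among the genes called against both organs, all 5 kidney arrays lay above all 10 other arrays in 1879 (13% of all genes tested). They lay below them in 1706 (11.8%). A further 842 genes were higher than lung and lower than heart (5.82%), and 779 were lower than lung and higher than heart (5.39%). Over all genes tested the median difference was -0.08 from lung and 0.01 from heart. Of the 595 genes, 300 had mean signals under 117.9 in both lung and heart, and for these the fold depends on the offset. Of the 207, 105 had a mean under it in kidney. With an offset of 64 the count at least 4-fold lower was 117.

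**Figure D1:**
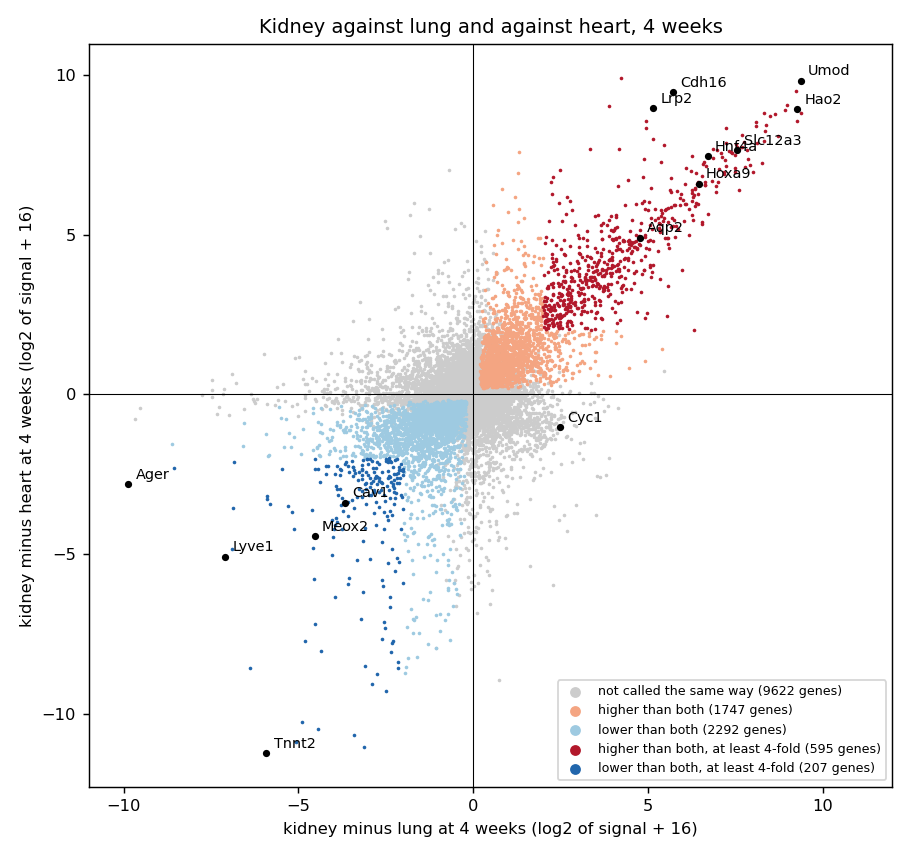
Each point is 1 of the 14463 genes tested, placed by its log2 difference from lung (horizontal axis) and from heart (vertical axis) at 4 weeks, and coloured by its call. The 595 genes at least 4-fold higher in kidney than in both organs reach beyond 9 on both axes (Umod), while Cyc1, a respiratory chain gene, lies above lung and below heart.

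The promoter windows of some genes at least 4-fold higher in kidney hold words that the hepatocyte nuclear factors, regulators shared by proximal tubule and liver, are known to bind. The windows are shown because such a word was found in them, and were chosen after the values were seen. They come from RefSeq on GRCm38.p6 and cover 300 bases around a start site. The search covered both strands for the HNF1 word (TTAAT and ATTA with 1 base of any kind between them), the HNF4A word CAAAGTCCA and the estrogen-related receptor word TCAAGGTCA. Capitals mark the match in each window. Cltrn, whose product collectrin carries amino acid transporters to the brush border, has the HNF1 word 53 bases before its start, overlapped by a match on the other strand that begins 1 base later (chrX:164089937-164090236, plus strand).
Cltrn: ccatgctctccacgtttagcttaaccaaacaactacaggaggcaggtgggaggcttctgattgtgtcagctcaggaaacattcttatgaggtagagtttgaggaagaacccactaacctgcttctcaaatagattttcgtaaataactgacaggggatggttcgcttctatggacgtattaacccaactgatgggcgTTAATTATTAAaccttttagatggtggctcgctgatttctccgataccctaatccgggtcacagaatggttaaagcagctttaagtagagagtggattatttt
Slc7a9 encodes the cystine transporter subunit of the proximal tubule. It has the HNF1 word 167 bases before a start site and 80 bases before another, whose window is shown (chr7:35448842-35449141, plus strand).
Slc7a9: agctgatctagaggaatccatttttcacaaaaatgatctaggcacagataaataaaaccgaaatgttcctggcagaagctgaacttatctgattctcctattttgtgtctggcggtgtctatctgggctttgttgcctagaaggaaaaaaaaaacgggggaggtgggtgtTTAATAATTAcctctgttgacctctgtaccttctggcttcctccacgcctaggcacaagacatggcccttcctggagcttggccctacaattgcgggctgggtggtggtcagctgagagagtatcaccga
Acsm2, a mitochondrial acyl-CoA synthetase, has it 56 bases before its start (chr7:119561458-119561757, plus strand).
Acsm2: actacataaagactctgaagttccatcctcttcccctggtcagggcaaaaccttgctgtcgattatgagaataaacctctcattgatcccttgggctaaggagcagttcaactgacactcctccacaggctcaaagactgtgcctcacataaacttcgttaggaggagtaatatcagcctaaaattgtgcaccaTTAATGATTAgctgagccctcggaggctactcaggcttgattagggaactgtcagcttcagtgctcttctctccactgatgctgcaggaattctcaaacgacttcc
Pdzk1, a scaffold that holds transporters at the brush border, has the HNF4A word 14 bases after its start (chr3:96829815-96830114, plus strand).
Pdzk1: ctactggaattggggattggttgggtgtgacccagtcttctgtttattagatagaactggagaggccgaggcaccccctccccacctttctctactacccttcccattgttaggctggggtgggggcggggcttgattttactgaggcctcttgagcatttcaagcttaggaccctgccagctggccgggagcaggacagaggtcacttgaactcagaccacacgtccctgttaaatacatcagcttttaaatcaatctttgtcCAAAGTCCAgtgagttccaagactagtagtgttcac

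The HNF1 word was in 18 of the 590 windows matched to the genes at least 4-fold higher in kidney (3.05%), in 0 of 203 windows of the genes at least 4-fold lower, in 42 of 14738 windows of all genes tested (0.285%) and in 135 of all 32851 windows (0.411%). The HNF4A word was in 13 of the 590 windows (2.2%) and in 2 of the 203 (0.985%), against 0.522% of the windows of all genes tested and 0.475% of all windows. The estrogen-related receptor word was in 1 of the 590 windows (0.169%), against 0.319% and 0.423%. The 590 windows belong to 470 genes, and windows of 1 gene can overlap, so that the 18 windows with the HNF1 word belong to 17 genes. A match describes the letters only, and no match says only that the letters are not in the window. Genes named outside the ranking and the lists were chosen after their values were seen.

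The 20 named genes with the largest difference from both organs were Umod, Cyp2j5, Dnase1, Hao2, Pdzk1, Klk1, Cyp2d26, Cltrn, Miox, Spink1, Slc27a2, Kng1, Rdh16f2, Aadat, Fxyd2, Hgd, Mep1b, Cldn2, Slc34a1 and Slc22a8. Each was higher in kidney by at least 7.68 on the log2 scale from both lung and heart. The order is that at the offset of 16 and with the brightest probe set. Under the alternatives the smaller difference was 7.37 to 10.45 for Cyp2j5, 6.35 to 10.16 for Klk1, 5.01 to 10.07 for Kng1 and 5.04 to 8.57 for Hgd. Umod, which encodes uromodulin, the most abundant protein of normal urine, gave signals of 24451, 24492, 31815, 24845 and 29511 on the kidney arrays. It gave 56.0, 4.10, 24.2, 22.4 and 32.4 on the lung arrays and 7.10, 59.5, 5.40, 16.5 and 2.90 on the heart arrays. The groups were far apart, with a log2 difference of 9.38 ± 0.35 from lung (SE, adjusted p = 3.04e-12) and 9.82 ± 0.35 from heart (adjusted p = 1.56e-12). Cyp2j5 and Cyp2d26 belong to families of similar genes, so their probe sets can also read relatives. Hao2 encodes a peroxisomal hydroxyacid oxidase, Miox the enzyme that opens the inositol ring, and Cldn2 the pore-forming claudin of the leaky proximal tubule.

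Along the tubule, 105 of the 120 genes in the 6 segment lists were higher in kidney than in both organs, 97 of them at least 4-fold, and 0 were lower. The background over all genes tested was 16.2% higher and 4.11% at least 4-fold higher.

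In the proximal tubule, 43 of 47 transport genes were higher than in both organs, 41 of them at least 4-fold, with median differences of 4.65 from lung and 4.82 from heart, against medians of -0.08 and 0.01 over all genes tested. Slc34a1, the main phosphate transporter of the brush border, gave 25623, 22914, 31327, 25847 and 28347 on the kidney arrays. Its signals were 82.0, 92.4, 163, 146 and 95.4 on the lung arrays and 116, 77.0, 39.9, 96.6 and 88.8 on the heart arrays. No array of lung or heart came near the kidney arrays, and the differences were 7.70 ± 0.22 and 8.12 ± 0.22 (SE, adjusted p = 1.38e-13 and 4.9e-14). Slc22a8, which takes up organic anions for secretion, differed by 7.68 and 7.75, Slc7a9 by 7.03 and 7.06, and Slc27a2, a fatty acid transporter and acyl-CoA synthetase, by 8.34 and 8.79. The exceptions were Aqp1, Slco1a1, Slc20a2 and Slc26a6. Aqp1, the water channel of the proximal tubule and of many capillaries, averaged 10304 ± 2790 in kidney, 9843 ± 1095 in lung and 7672 ± 1533 in heart (SD, n = 5 each). Its kidney arrays overlapped those of both organs, with differences of 0.03 from lung (adjusted p = 0.872) and 0.41 from heart (adjusted p = 0.0495).

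Of 20 genes of the brush border and of protein uptake, 17 were higher than in both organs and 16 at least 4-fold. Lrp2 encodes megalin, the receptor that retrieves filtered proteins. It gave 14272, 13430, 19152, 13370 and 14962 on the kidney arrays, 422, 447, 359, 387 and 413 on the lung arrays, and 14.5, 7, 26.1, 10.1 and 14.8 on the heart arrays. The 3 organs did not overlap, and lung lay between kidney and heart, at differences of 5.15 ± 0.15 from lung and 8.96 ± 0.15 from heart (SE, adjusted p = 1.56e-13 and 3e-16). Cubn, the partner receptor of Lrp2, differed by 8.28 and 7.25, Mep1b, a brush border protease subunit, by 8.11 and 7.88, and Pdzk1 by 8.92 and 8.90. The 3 genes not called against both were the brush border peptidases Mme, Dpp4 and Enpep. They were higher than heart by 4.07, 3.50 and 3.09 and were at 0.26, 0.15 and 0.06 from lung (adjusted p = 0.136, 0.448 and 0.524). With the mean of all probe sets of a gene, Mme was called higher, with 0.79 as the smaller of its differences.

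**Figure D2:**
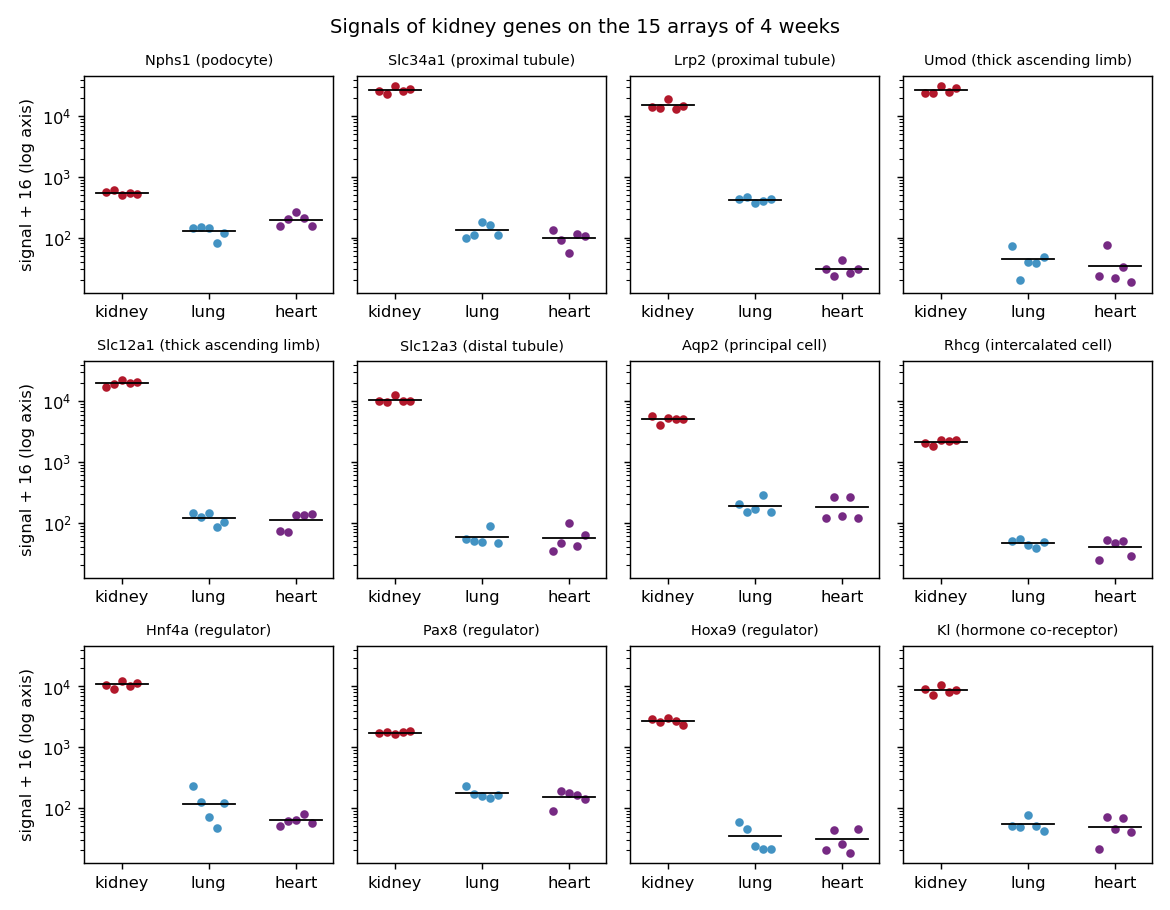
Each point is the signal of 1 array plus 16 on a log axis, for 12 genes in kidney, lung and heart at 4 weeks, with 5 arrays per organ and a line at the mean. In every panel the 5 kidney arrays lie above all lung and heart arrays, with the smallest gap for the podocyte gene Nphs1.

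All 11 genes of the loop of Henle were higher in kidney than in both organs, 10 of them at least 4-fold, with medians of 4.11 from lung and 5.31 from heart. Slc12a1, the furosemide-sensitive salt transporter, averaged 19883 ± 1803 in kidney, 103 ± 25.5 in lung and 93.8 ± 34.6 in heart (SD, n = 5 each), a difference of 7.41 and 7.56. Kcnj1, the potassium channel that recycles its substrate, differed by 7.55 and 7.74. Egf, whose product is made in this segment and in the distal tubule, differed by 7.62 and 6.40, and the paracellular magnesium channel gene Cldn16 by 4.66 and 5.00.

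In the distal convoluted and connecting tubule 12 of 13 genes were higher than in both organs and 10 at least 4-fold. Slc12a3, the thiazide-sensitive salt transporter, averaged 10503 ± 1233 in kidney, 41.3 ± 17.5 in lung and 40.6 ± 26.1 in heart (SD, n = 5 each). The differences were 7.56 ± 0.25 and 7.64 ± 0.25 (SE, adjusted p = 6.59e-13 and 4.77e-13). Calb1, which buffers calcium as it crosses the cell, differed by 7.78 and 7.11, and Klk1, tissue kallikrein, by 9.38 and 8.82. The remaining gene, Trpm6, a magnesium channel, was lower than lung, at -0.46 (adjusted p = 0.00721), and higher than heart, at 2.32 (adjusted p = 3.97e-10).

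Intercalated cells of the collecting duct move acid and base, and 14 of their 16 genes were at least 4-fold higher in kidney than in both organs. Rhcg, an ammonia channel, gave 2056, 1813, 2309, 2174 and 2322 on the kidney arrays, 34.8, 38.6, 27.6, 22.0 and 31.4 on the lung arrays, and 7.90, 35.7, 30.7, 33.8 and 12 on the heart arrays. The kidney arrays stood apart, at 5.53 ± 0.20 and 5.81 ± 0.20 (SE, adjusted p = 1.8e-12 and 8.15e-13). Aqp6, Car12 and Atp6v0a4, the last a subunit of the proton pump, differed by 4.46 to 6.05.

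Principal cells take up sodium and water, and 8 of their 13 genes were higher in kidney than in both organs, 6 of them at least 4-fold. Aqp2, the water channel controlled by vasopressin, gave 5743, 4002, 5311, 5095 and 5100 on the kidney arrays. Its signals were 185, 132, 151, 266 and 135 on the lung arrays and 105, 254, 115, 245 and 103 on the heart arrays. The lung and heart arrays overlapped each other and no kidney array, and the differences were 4.77 ± 0.25 and 4.91 ± 0.25 (SE, adjusted p = 1.43e-10 and 9.55e-11). The vasopressin receptor gene Avpr2 differed by 3.87 and 3.27, and Hsd11b2, which protects the mineralocorticoid receptor from glucocorticoids, by 4.03 and 5.14. The 3 subunits of the epithelial sodium channel were not called higher than in both. Scnn1g averaged 1056 ± 194 in kidney, 3030 ± 234 in lung and 18.8 ± 8.57 in heart (SD, n = 5 each). It was thus lower than in lung, at -1.52 (adjusted p = 7.98e-07), and higher than in heart, at 4.97 (adjusted p = 6.53e-13). Scnn1a differed by -0.88 from lung and 3.81 from heart. Scnn1b was at -0.41 from lung (adjusted p = 0.191) and 3.47 from heart.

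Podocytes form the filtration barrier. Of 13 podocyte genes, 4 were higher in kidney than in both organs, 0 at least 4-fold, and 2 were lower, with medians of -0.43 from lung and 0.91 from heart. Shares over all genes tested were 16.2% higher, 4.11% at least 4-fold higher and 17.3% lower. Nphs1, the gene of nephrin in the filtration slit, gave 554, 590, 495, 526 and 503 on the kidney arrays, 128, 135, 127, 65.4 and 102 on the lung arrays, and 141, 183, 247, 192 and 140 on the heart arrays. The kidney arrays did not overlap the others, and the differences were 2.14 ± 0.17 and 1.51 ± 0.17 (SE, adjusted p = 2.36e-08 and 1.48e-06). The other 3 were Rhpn1, Ptpro and Cd2ap, and Cd2ap was not called with the mean of all probe sets. Clic5, which is also expressed by capillary endothelium and lung epithelium, averaged 1106 ± 43.1 in kidney, 7959 ± 763 in lung and 2582 ± 245 in heart (SD, n = 5 each). Plce1, a phospholipase of the podocyte, was lower by 1.77 and 1.71 in kidney. Wt1, a podocyte regulator also present in mesothelium, differed by 1.18 from lung and 0.04 from heart, and Podxl, a podocyte surface sialomucin also found on endothelium, by -0.83 and 0.21.

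**Figure D3:**
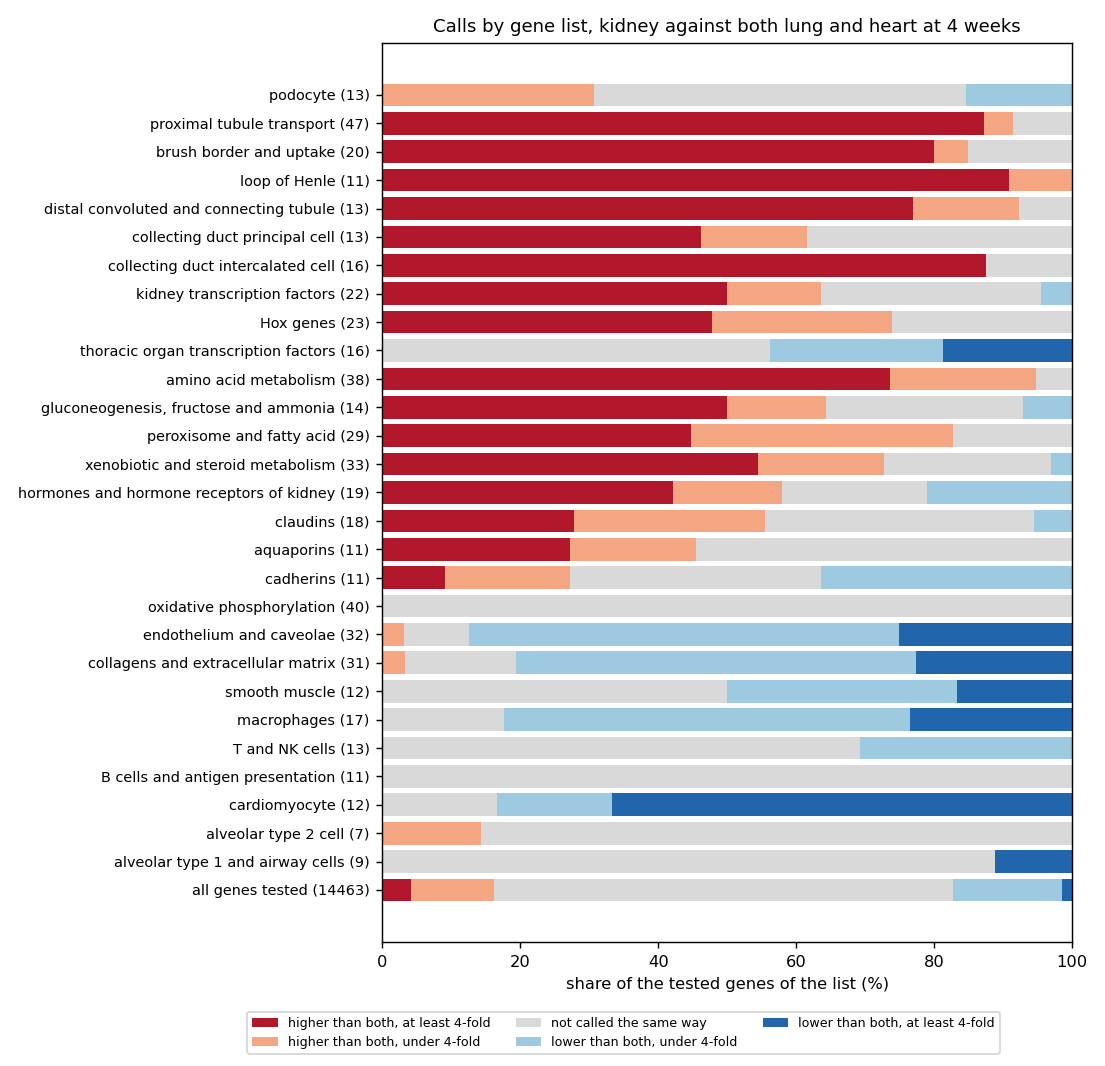
Each bar is 1 gene list (number of tested genes in brackets) at 4 weeks, split into the share of its genes higher than, lower than or not called the same way against both lung and heart. The tubule and metabolism lists are mostly red and orange, the endothelium, matrix and macrophage lists mostly blue, and all 40 oxidative phosphorylation genes are grey, against 16.2% higher and 17.3% lower over all genes tested.

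Among 22 transcription factors of kidney development and of tubule cells, 14 were higher in kidney than in both organs, 11 at least 4-fold, and 1 was lower. For all genes tested these shares were 16.2%, 4.11% and 17.3%. Hnf4a, a nuclear receptor of proximal tubule, liver and gut, gave 10722, 9112, 12404, 10009 and 11565 on the kidney arrays. It gave 211, 108, 55.3, 30.4 and 104 on the lung arrays and 35.2, 44.3, 46.6, 64.1 and 39.5 on the heart arrays. The kidney arrays were all above the others, at 6.71 ± 0.31 and 7.45 ± 0.31 (SE, adjusted p = 2.81e-11 and 7.62e-12). Pax8, needed in early kidney and kept in the tubule, averaged 1720 ± 74.6 in kidney, 157 ± 31.5 in lung and 134 ± 40.2 in heart (SD, n = 5 each). Nr1h4, the bile acid receptor, Sall1, Emx2 and Lhx1, regulators of early kidney formation, were higher by 4.55 to 5.01 in both comparisons. Eya1, another early regulator, was lower by 1.54 and 0.85. It was not called, with -0.25 as its smaller difference, when the letter case of the sample description was a covariate. Six2, the marker of nephron progenitors, differed by 0.25 and -0.12. Esrrg, an estrogen-related receptor of energy-demanding tissues, was higher than lung by 4.47 and higher than heart by 0.81. It was not called with all 40 arrays in 1 fit, which includes 2 arrays of 1 week whose markers went against their label.

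Hox genes give cells their position along the body axis, and genes of higher paralog number are used further towards the tail. Of 23 Hox genes tested, on chromosomes 6, 11, 15 and 2 for the clusters Hoxa, Hoxb, Hoxc and Hoxd, 17 were higher in kidney than in both organs and 0 were lower. The shares over all genes tested were 16.2% and 17.3%, with 4.11% at least 4-fold higher. All 11 tested genes of paralog groups 8 to 11 were higher, 9 of them at least 4-fold, against 6 of the 12 tested genes of groups 2 to 6, of which 2 were at least 4-fold. A further 10 Hox genes were too dim to test. Hoxa9 gave 2910, 2575, 3035, 2673 and 2337 on the kidney arrays, 43.5, 28.2, 7.20, 5.30 and 5.30 on the lung arrays, and 3.90, 27.8, 9.10, 2.00 and 28.2 on the heart arrays. Its kidney arrays were all above the other 10, at 6.46 ± 0.31 and 6.59 ± 0.31 (SE, adjusted p = 5.38e-11 and 4.02e-11). The size depends on the processing, and under the alternatives the smaller difference of Hoxa9 was 3.64 to 7.66. A second, dimmer probe set of Hoxa9 was at 1.77 from lung and 0.69 from heart. Hoxd10 differed by 4.74 and 4.69, Hoxd8 by 4.51 and 4.43 and Hoxd9 by 4.20 and 4.17. Hoxa5, used in the thorax, averaged 1012 in kidney, 1164 in lung and 1560 in heart, at -0.31 and -0.70. Hoxa4 differed by -1.78 and -0.50, and Hoxb5 by -0.32 from lung and 3.72 from heart.

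**Figure D4:**
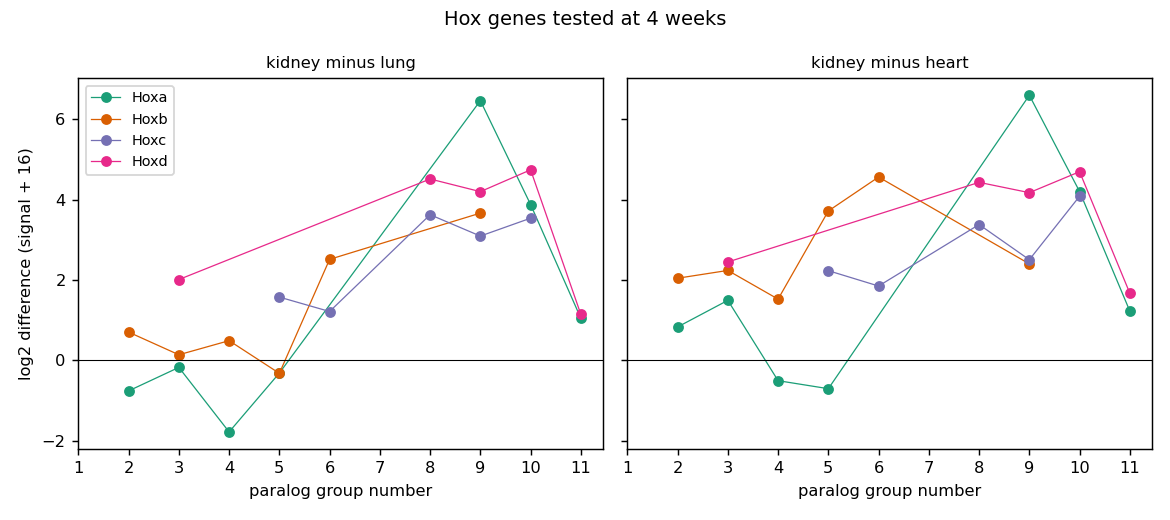
Each point is 1 of the 23 Hox genes tested, placed by its paralog group number and by its log2 difference of kidney from lung (left) or from heart (right), with lines joining genes of 1 cluster. The genes of groups 8 to 11 all lie above 1 in both panels, and Hoxa4 and Hoxa5 lie below 0 in both.

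Of 16 transcription factors of the thoracic organs tested, 0 were higher and 7 were lower in kidney than in both organs, 3 at least 4-fold. Over all genes tested 16.2% were higher, 17.3% lower and 1.43% at least 4-fold lower. Meox2, a homeobox gene of mesoderm and vessels, gave 25.8, 7, 21.8, 9.90 and 6.50 on the kidney arrays. It gave 772, 712, 579, 670 and 580 on the lung arrays and 954, 533, 614, 497 and 599 on the heart arrays. Lung and heart overlapped each other and neither overlapped kidney, with differences of -4.53 ± 0.20 and -4.45 ± 0.20 (SE, adjusted p = 1.68e-11 and 1.93e-11). Gata6 was lower by 3.08 and 4.18. Tbx5, needed for heart and lung formation, was lower by 3.75 and 3.23. Its kidney arrays ranged from 15.3 to 324, with replicate 4 the highest, against 952 to 1385 in lung and 428 to 1090 in heart.

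Of 114 genes in 4 lists, 93 were higher in kidney than in both organs, 66 at least 4-fold, and 2 were lower. The background over all genes tested was 16.2%, 4.11% and 17.3%. For amino acid metabolism the counts were 36 of 38 higher and 28 at least 4-fold. Aadat, which breaks down kynurenine and aminoadipate, differed by 8.09 and 8.53, Hgd, of tyrosine breakdown, by 8.33 and 7.92, and Glyat, which conjugates glycine to acids, by 7.53 and 7.84.

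Kidney shares glucose production with the liver. Of 14 genes of gluconeogenesis, fructose use and ammonia formation, 9 were higher than in both organs, 7 at least 4-fold, and 1, Gpt, was lower by 0.52 and 0.85. Gpt was not called with the mean of all probe sets or against a 1.5-fold threshold. G6pc, the enzyme that releases free glucose, gave 15532, 16635, 23906, 18573 and 21850 on the kidney arrays. It gave 148, 106, 130, 178 and 120 on the lung arrays and 42.0, 94.5, 86.7, 104 and 78.7 on the heart arrays. The kidney arrays were far above both organs, at 6.99 ± 0.19 and 7.66 ± 0.19 (SE, adjusted p = 1.11e-13 and 2.48e-14). Fbp1 differed by 7.18 and 6.89 and Pck1 by 6.27 and 7.47. The isoform Fbp2, known from muscle, differed by 3.72 from lung and -0.16 from heart. Got1, a transaminase of the malate-aspartate shuttle, differed by 3.62 from lung and -2.59 from heart.

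Of 29 peroxisomal and fatty acid genes, 24 were higher than in both organs and 13 at least 4-fold, led by Hao2 (9.27 and 8.93), Cyp4a14 (7.62 and 7.68) and Acsm2 (7.86 and 7.36). Of 33 genes of xenobiotic and steroid metabolism, 24 were higher, 18 at least 4-fold, and 1 was lower. Cyp2j5 differed by 9.24 and 9.51, and Cyp27b1, which makes active vitamin D, by 3.96 and 2.70. Aldh1a1, a retinaldehyde dehydrogenase, was the lower one. It averaged 405 ± 47.6 in kidney, 16122 ± 1491 in lung and 956 ± 123 in heart (SD, n = 5 each), and it was not called with all 40 arrays in 1 fit. The Cyp4a, Cyp2d and Ugt3a genes have close relatives that their probe sets may also read.

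The respiratory chain carries electrons to oxygen in mitochondria. Of 40 tested genes of oxidative phosphorylation, 0 were higher or lower in kidney than in both organs, and 39 were higher than in lung and lower than in heart. That call held for 842 of all 14463 genes tested (5.82%). The list's median differences were 1.88 from lung and -1.03 from heart. Cyc1, cytochrome c1 of complex III, gave 17071, 16682, 22767, 18483 and 19568 on the kidney arrays, 3476, 3029, 3340, 3682 and 3368 on the lung arrays, and 44177, 39469, 36113, 33423 and 40315 on the heart arrays. The 3 organs did not overlap, with differences of 2.47 ± 0.10 from lung and -1.03 ± 0.10 from heart (SE, adjusted p = 9.08e-12 and 2.87e-07). Sdhb, of complex II, differed by 2.45 and -1.10. The remaining gene, Cox7c, had -0.28 and -0.38, at mean signals of 254 in kidney, 312 in lung and 336 in heart.

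Among 19 hormones and hormone receptors of the kidney, 11 were higher than in both organs, 8 at least 4-fold, and 4 were lower. For all genes tested the shares were 16.2%, 4.11% and 17.3%. Kl, the co-receptor that lets the distal tubule sense the bone hormone FGF23, gave 9123, 7301, 10488, 8016 and 8844 on the kidney arrays, 34.6, 32.9, 59.2, 34.2 and 25.7 on the lung arrays, and 4.60, 54.8, 29.1, 52.9 and 24.6 on the heart arrays. The kidney arrays were all above both organs, at 7.38 ± 0.27 and 7.60 ± 0.27 (SE, adjusted p = 2.47e-12 and 1.56e-12). Pth1r, the parathyroid hormone receptor, differed by 6.17 and 4.99, and Guca2b, the urinary peptide uroguanylin, by 4.79 and 5.35. The lower genes were Npr3, Fgf1, Igf1 and Hdc, and the last 3 were not called against a 1.5-fold threshold. Igf1 averaged 969 ± 89.9 in kidney, 1411 ± 236 in lung and 1543 ± 240 in heart (SD, n = 5 each). Of its kidney arrays 1, at 1099, lay above the lowest lung array, at 1089.

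Of 18 claudins, 10 were higher than in both organs, 5 at least 4-fold (Cldn2, Cldn8, Cldn10, Cldn16 and Cldn19), and Cldn5, the claudin of endothelium, was lower by 3.81 and 0.96. Of 11 aquaporins 5 were higher and 0 lower. Of 11 cadherins 3 were higher and 4 lower. Over all genes tested 16.2% were higher and 17.3% lower, and these lists are short. Cdh16, the kidney-specific cadherin, averaged 23324 ± 3356 in kidney, 426 ± 22.8 in lung and 17.4 ± 6.08 in heart (SD, n = 5 each), a difference of 5.71 and 9.46. Cdh1, E-cadherin, was at -0.69 from lung (adjusted p = 0.0685) and 7.03 from heart. Cdh5, Cdh13, Cdh19 and Cdh2 were the lower ones. With the letter case of the sample description as a covariate Cdh19 and Cdh2 were not called, at -0.47 and -0.85 for the smaller difference, against -1.21 and -1.04 without it.

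Most genes on the lists of vessels, matrix, smooth muscle and macrophages were lower in kidney. Over the lists of endothelium, matrix, smooth muscle and macrophages, 73 of 92 genes were lower, 21 at least 4-fold, and 2 were higher. The background over all genes tested was 17.3% lower and 1.43% at least 4-fold lower.

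Of 32 endothelial and caveolar genes, 28 were lower in kidney than in both organs, 8 at least 4-fold, with medians of -2.40 from lung and -1.42 from heart. The summed signal of the list was 35099 to 40111 on the kidney arrays, against 158129 to 200740 on the lung arrays and 133649 to 137794 on the heart arrays. Cav1, the coat protein of caveolae, gave 1878, 1566, 1214, 1502 and 1635 on the kidney arrays. It gave 16196, 19256, 21160, 23188 and 20465 on the lung arrays and 16070, 16170, 17279, 15690 and 16529 on the heart arrays. The kidney arrays were all below the others, at -3.68 ± 0.12 and -3.39 ± 0.12 (SE, adjusted p = 4.16e-13 and 7.72e-13). Vwf, von Willebrand factor, was lower by 5.18 and 3.68, Lyve1, a marker of lymphatic endothelium and some macrophages, by 7.09 and 5.09, and Cd36, a fatty acid receptor, by 3.76 and 4.24. The gene higher than in both organs was Emcn, endomucin, with 2931 ± 317 in kidney, 2496 ± 255 in lung and 2305 ± 163 in heart (SD, n = 5 each). Its difference was small, 0.23 (adjusted p = 0.0459) and 0.34 (adjusted p = 0.00572), and its kidney arrays overlapped those of lung. The call was lost without kidney replicate 3, where the difference from lung was 0.17, and under several other settings. Plvap, of fenestrated endothelium, was lower than lung by 0.60 and higher than heart by 2.69.

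Of 31 collagen and matrix genes, 25 were lower than in both organs and 7 at least 4-fold, led by Mfap5 (-4.01 and -4.47), Lama4 (-3.92 and -3.86) and Postn (-5.29 and -3.49). Col18a1, a collagen of basement membranes, was the only one higher. It gave 3465, 2251, 2506, 2744 and 3066 on the kidney arrays, 842, 841, 734, 738 and 721 on the lung arrays, and 677, 532, 504, 459 and 556 on the heart arrays. The groups did not overlap, at 1.82 ± 0.12 and 2.33 ± 0.12 (SE, adjusted p = 3.11e-09 and 1.59e-10). Col4a3 and Col4a4, chains of the mature glomerular and alveolar basement membrane, were higher than heart by 3.22 and 3.63 and were at 0.17 and 0.13 from lung (adjusted p = 0.398 and 0.431).

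Of 17 macrophage genes 14 were lower in kidney than in both organs, 4 at least 4-fold, and 0 were higher. The list's summed signal was 7791 to 10630 on the kidney arrays, against 67157 to 92763 on the lung arrays and 28678 to 34572 on the heart arrays. Mrc1, the mannose receptor, averaged 256 ± 49.4 in kidney, 2054 ± 131 in lung and 1631 ± 92.4 in heart (SD, n = 5 each). Lyz1 and Lyz2, the lysozyme genes, were lower by at least 3.43 in all 4 comparisons, and their probe sets may read both. In lung they averaged 25581 and 29364, a large part of the list's summed signal there. Of 12 smooth muscle genes 6 were lower in kidney than in both organs and 0 were higher. Of 13 T and natural killer cell genes 4 were lower and 0 higher, and of 11 genes of B cells and antigen presentation 0 were called against both organs. Over all genes tested 17.3% were lower and 16.2% higher.

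The 10 named genes with the largest negative difference were Myl7, Tnnt2, Lyve1, Mb, Myh6, Lyz1, Sln, Hopx, Myzap and Myl4. Myl7, Tnnt2, Mb, Myh6, Sln and Myl4 encode proteins of heart muscle. This order too depends on the offset and the probe set, and under the alternatives the smaller difference was -6.28 to -2.09 for Mb, -5.89 to -2.38 for Sln and -5.48 to -2.12 for Myl4. Tnnt2 averaged 8.30 ± 10.1 in kidney, 1422 ± 390 in lung and 55406 ± 4819 in heart (SD, n = 5 each). All 5 lung arrays were above all 5 kidney arrays. The summed signal of the 12 cardiomyocyte genes was 760 to 1471 on the kidney arrays, against 7801 to 17503 on the lung arrays and 447505 to 562306 on the heart arrays. Of these genes 10 were lower in kidney than in both organs. The part of heart muscle RNA in the lung signal was not tested. A second, dimmer probe set of Tnnt2 was at 0.84 from lung and -5.14 from heart. Klk1, Car12, Cd2ap, Cdh13, Lyz1, Mb, Myl4, Napsa and Sln also have a dimmer probe set that did not differ the same way from both organs.

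Lists for other tissues that a dissected kidney can carry were checked in the same way. Of 7 adrenal genes tested, 0 were called against both organs. Of 8 liver genes, 5 were higher in kidney (Ttr, Fga, Alb, Apoa2 and Afp), against 16.2% of all genes tested. Ttr, transthyretin, gave 8466, 6034, 8380, 7106 and 7415 on the kidney arrays, against at most 53.4 on the lung arrays and 62.5 on the heart arrays. Alb, the main product of liver, differed by 1.25 and 1.07. With all 40 arrays in 1 fit Alb, Apoa2 and Afp were not called, which leaves 2 of the 8. That fit includes the 2 arrays of 1 week, described below, whose markers went against their label. Ahsg, another liver product, was at -0.05 from lung (adjusted p = 0.935) and -2.19 from heart. The summed signal of the liver list was 8312 to 10856 on the kidney arrays, against 703 to 876.5 on the lung arrays and 568 to 1252 on the heart arrays. Most of the kidney sum was Ttr alone, so it does not describe the list as a whole. On the kidney arrays Fgb gave at most 11.9 and Ahsg at most 14.6. The part of liver RNA in the calls of the liver list was not tested. Ucp1, of brown fat, gave 1709, 422, 885, 18 and 17.9 on the kidney arrays. It was thus uneven within kidney, and it was not called (adjusted p = 0.0711 from lung and 0.168 from heart). Adipoq, the adiponectin gene of fat, gave 1295, 211, 483, 60.7 and 62.3 on the same kidney arrays, and Cidea, a lipid droplet gene, gave 652, 191, 445, 88.1 and 40.2. These signals were not particular to kidney, as Cidea gave 930.5 to 1212 on the heart arrays and Adipoq 2580 on lung replicate 4. The summed signal of the adipocyte list was 698 to 4597 on the kidney arrays, against 1160 to 4488 on the lung arrays and 1459 to 2690 on the heart arrays. Kidney replicate 1 was the highest kidney array for all 3 genes and for the sum, and the part of fat RNA in the differences was not tested. Napsa, the only gene of the alveolar type 2 list higher in kidney than in both organs, averaged 23565 ± 4295 in kidney, 9421 ± 1533 in lung and 107 ± 30.8 in heart (SD, n = 5 each). It encodes napsin A, a protease made in proximal tubule as well as lung. Napsa was not called with the mean of all probe sets or with all 40 arrays in 1 fit.

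The same genes were then looked up at the other ages. At 8 weeks, where kidney and lung were measured, 590 of the 595 genes at least 4-fold higher at 4 weeks were higher in kidney than in lung, against 32% of all genes tested. Of the 207 genes at least 4-fold lower, 206 were lower than in lung, against 37.7%. At 1 week 2 arrays carried markers of another organ than their label. On the array labelled heart replicate 5, Sftpc gave 27187 and Myh6 2396, against 125 to 1072.5 and 36521 to 44803 on the other heart arrays. On the array labelled lung replicate 4, Sftpc gave 1982.5 and Myh6 36022, against 23328 to 28922 and 611 to 1868 on the other lung arrays. As labelled, 550 of the 595 were higher in kidney than in both organs at 1 week (background 11.5%) and 558 without these 2 arrays (background 12.5%). Of the 207, 165 were lower as labelled (background 7.35%) and 184 without the 2 arrays (background 8.42%). The exception in direction against both organs was Dclk1, a microtubule-binding kinase, which in kidney averaged 510 at 1 week and 30.1 at 4 weeks. At 1 week Dclk1 was higher than in both organs. Reversals against a single organ were not counted. Ddc, among the 595, was lower in kidney than in heart at 1 week without the 2 arrays, at -1.57 (limma, adjusted p = 1.86e-06).

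Of the 595 genes, the 5 not called higher than lung at 8 weeks were Pvalb, Rec8, Rtel1, Serpina6 and Sp5. Serpina6, the corticosteroid-binding globulin, averaged 11501 at 1 week, 1210 at 4 weeks and 86.0 at 8 weeks in kidney, while lung had 92.0 at 4 weeks and 82.9 at 8 weeks. Kidney thus lost its lead over lung, with a difference of 3.45 at 4 weeks and 0.13 at 8 weeks. Pvalb, parvalbumin of the early distal tubule, averaged 951 at 4 weeks and 952 at 8 weeks in kidney, while lung had 127 at 4 weeks and 948 at 8 weeks. The change in its distance from lung, -2.11 ± 0.67 (SE), was not called (adjusted p = 0.209).

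The distance between kidney and lung differed between 8 and 4 weeks in 88 genes, 0.608% of those tested (limma interaction, adjusted p under 0.05), with kidney further up relative to lung at 8 weeks in 38 and further down in 50. At an unadjusted p under 0.05 there were 1562. Among the 595 genes, 9 moved further above lung (Apob, Cyp2c23, Ddc, Dpys, Gsta2, Hpd, Nox4, Slc16a7 and Ugt2b38) and 3 moved closer (Ncam1, Serpina6 and Slc6a20a). Hpd, of tyrosine breakdown, averaged 186 at 1 week, 5212 at 4 weeks and 10619 at 8 weeks in kidney, against 113 at 4 weeks and 119 at 8 weeks in lung. Its distance from lung was larger at 8 weeks by 0.96 ± 0.21 (SE, adjusted p = 0.0362). Dpys, of pyrimidine breakdown, averaged 12.6, 459 and 907 in kidney at 1, 4 and 8 weeks. In lung it averaged 24.3 at 4 weeks and 4.78 at 8 weeks. Its distance was larger by 1.85 ± 0.27 (SE, adjusted p = 0.00292), and the fall in lung, at dim signals, is part of that. Ncam1, an adhesion molecule of early nephrons, averaged 2508, 138 and 34.7 in kidney at 1, 4 and 8 weeks. In lung it averaged 9.86 at 4 weeks and 12.5 at 8 weeks. Its distance was smaller at 8 weeks, at -1.63 ± 0.32 (SE, adjusted p = 0.0238). Among the 207 genes, Mfap4 and Ptgis differed. The count of 88 moved with single arrays. It was 112 without kidney replicate 3 of 4 weeks. Without 1 kidney array of 8 weeks it was 53 (replicate 1), 37 (replicate 2), 57 (replicate 3) or 58 (replicate 4), and without kidney replicate 1 or 5 of 4 weeks it was 56. Without 1 lung array it was 39, 41 or 44 (replicates 2, 3 and 4 of 4 weeks) or 53 and 46 (replicates 2 and 3 of 8 weeks).

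**Figure D5:**
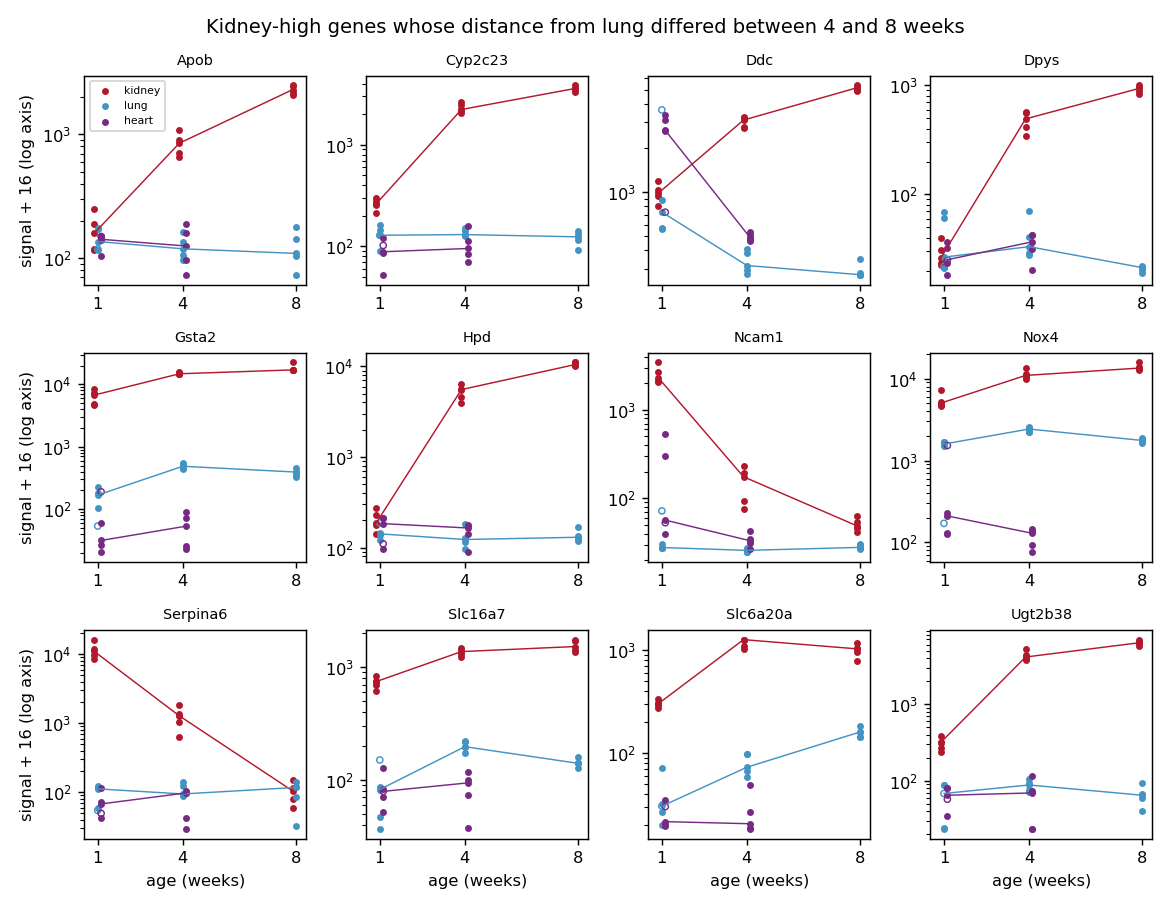
Each point is the signal of 1 array plus 16 on a log axis against age in weeks (1, 4 and 8), for the 12 genes at least 4-fold higher in kidney at 4 weeks whose distance from lung differed between 8 and 4 weeks. Lines join the medians, and open points mark the 2 arrays of 1 week whose markers went against their label. Hpd, Dpys and Apob of kidney lie higher at 4 and 8 weeks than at 1 week, and Serpina6 and Ncam1 of kidney lie lower.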

How the data were processed

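Total RNA of whole organs was hybridised to 1-colour Affymetrix arrays with 45101 probe sets. The deposited values are linear intensities per probe set. On every array their mean after trimming 2% at each end was 500, so the authors had scaled them per array, as the deposited values themselves show. The submitters' processing notes name RMA and Partek 6.6, without a role, and these linear values show no log scale. Through the platform annotation 34958 probe sets had 1 symbol, 932 several (not named) and 9211 none, which gave 18194 genes.

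Values were taken as log2(intensity + 16). Genes were tested where the highest of the 3 organ means reached the 40th percentile of all values, 117.9. Group means of the 15 arrays of 4 weeks were fitted with limma 3.58.1 in R 4.3.3 (lmFit, eBayes), with Benjamini-Hochberg adjustment in each contrast and a threshold of 0.05. Arrays of 8 weeks were fitted separately, and the 8-week minus 4-week interaction in 1 fit of 20 arrays. No 2 arrays held identical values. The procedure was tested on simulated data. Of 672 entries in 34 gene lists, 616 matched a gene on the array, and the others were not analysed here. The genes ranked in the text were the 20 highest and 10 lowest by the smaller of both differences, without overlap of arrays and without placeholder symbols, together with up to 4 called genes per list and direction and fixed marker genes. The comparison, the genes and the lists were chosen with earlier results of these data known. Alternatives covered the offset, the filter, quantile normalization, the probe set rule, the fit, blocks and each array left out. Figures were drawn with matplotlib 3.10.9.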

Additional observations from a re-analysis of the deposited data

Results flagged for a closer look

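Among 123 genes named in the text, 369 groups of 5 arrays were checked for an array far from the other 4, by its gap as a share of the group's range, against a critical value of 0.71. Of these groups 25 exceeded it (6.78%), where chance gives about 1 in 20. Heart replicate 2 was the lowest heart array for Myl7 (2443, share 0.89), Sln (878, share 0.9) and Myl4 (2289, share 0.877), which are known mainly from atrial muscle, while the other heart arrays had at least 16860 for Myl4. Lung replicate 2 was the lowest lung array for Tnnt2 (759, share 0.756), Mb (335, share 0.747) and Myl4 (1158, share 0.726). In kidney the shares were 0.778 for Slc12a3 and 0.765 for Cdh13, 0.754 for Alb, 0.803 for Myl7 and 0.724 for Mb, all in replicate 3 except Myl7 in replicate 2. In lung they were 0.834 for Dnase1, 0.829 for Mep1b, 0.756 for Slc12a3, 0.719 for Cd2ap, 0.917 for Cyp4a14, 0.783 for Cldn8, 0.733 for Cdh5 and 0.759 for Vwf. In heart they were 0.769 for Scnn1b, 0.782 for Cdh19, 0.746 for Lyve1, 0.856 for Lama4, 0.741 for Ttr and 0.738 for Ucp1.

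The distance of kidney from lung differed between 8 and 4 weeks (limma interaction, log2 scale) by 1.54 for Apob, 0.81 for Cyp2c23, 0.98 for Ddc, 1.85 for Dpys, 0.63 for Gsta2, 0.96 for Hpd, 0.74 for Nox4, 0.69 for Slc16a7 and 1.02 for Ugt2b38. It differed by -1.63 for Ncam1, -3.31 for Serpina6 and -1.30 for Slc6a20a. Of the genes at least 4-fold lower in kidney at 4 weeks, it differed by 1.34 for Mfap4 and -0.76 for Ptgis.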

How the results depend on the processing

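The counts at least 4-fold higher kept within 1.5 times their value under every alternative run. Leaving out 1 array gave 586 to 602 of them, 205 to 219 at least 4-fold lower, 2207 to 2589 higher, 2386 to 2562 lower, 8896 to 9560 differing from lung, 8494 to 9196 differing from heart, 581 to 596 called again at 8 weeks, and 37 to 112 for the interaction of age and organ. With log2(signal + 64) there were 117 at least 4-fold lower. Testing against 1.5-fold gave 4676 differing from lung, 4268 from heart, 1171 higher and 968 lower. With the letter case of the sample description as a covariate 1556 were lower. The interaction gave 54 genes with the mean of all probe sets, 41 without the filter and 53 with the replicate block; the cause was not tested. Arrays of the same replicate number did not deviate together (correlations of -0.20 to 0.12 over 15 pairs). The replicate block gave 2317 higher, 2426 lower, 595 and 207 at least 4-fold, and 590 called again at 8 weeks. The sample descriptions carry another number that recurs across organs. Arrays of 4 weeks that shared it had correlations of -0.11 to 0.16 over 10 pairs. As a random block it gave 2350 higher, 2505 lower, and 595 and 207 at least 4-fold. Whether either number names an animal is not known. Quantile normalization put the median difference from lung at 0.03, against -0.08, and gave 51.4% of calls as higher, against 48.4%. Without the 3 arrays high in poly-A controls, each the highest of its organ, 583 of the 595 were called again at 4-fold. That alternative was chosen after seeing the data. No call of a named gene changed direction. Single arrays decided the calls of Emcn, Hdc, Cox7c and Hoxa4: Hdc was not called without kidney replicate 1 (-0.34) or 3 (-0.32) or heart replicate 4 (-0.34), and Hoxa4 was called lower without kidney replicate 2 (-0.66) or 5 (-0.62). Cox7c was called lower without kidney replicate 2 (-0.32) or 4 (-0.33), lung replicate 3 (-0.33) or 4 (-0.32), or heart replicate 1 (-0.28). Emcn was not called without kidney replicate 2, 3 or 5, lung replicate 1, 4 or 5, or heart replicate 2, 3 or 5 (0.17 to 0.24). With the mean of all probe sets Napsa (0.50), Cd2ap (0.06), Gpt (-0.57) and Hdc (-0.20) were not called, while Mme (0.79) and Sftpc (-0.84) were. The fit of all 40 arrays includes the 2 arrays of 1 week with markers against their label, and their part was not tested. With all 40 arrays in 1 fit Aldh1a1, Esrrg, Rtel1, Alb, Apoa2, Afp, Napsa, Emcn and Hdc were not called, with Aldh1a1 at -1.20, Esrrg at 0.81 and Rtel1 at 2.15. With the letter case as a covariate Cdh19 (-0.47), Cdh2 (-0.85), Eya1 (-0.25), Cd2ap (0.42), Emcn (0.12) and Hdc (-0.21) were not. Against 1.5-fold Apoa2, Cd2ap, Cdh19, Cdh2, Emcn, Esrrg, Eya1, Fgf1, Gpt, Hdc and Igf1 were not. Apoa2 (0.64) and Emcn (0.14) were not called without the 3 arrays high in poly-A controls. Hoxa4 was called lower with quantile normalization (-0.57) or the replicate block (-0.50), and Emcn was lost under both and without the filter. Hdc was lost at the offset of 64 and with a trended prior, and Cox7c was called with the stricter filter. These values are the smaller of the 2 differences.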
